A study of Danio rerio with 2 samples.

Results

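The solute carrier (*slc*) genes were compared between zebrafish larvae injected with *miR-132* MO and larvae injected with Ctrl MO. A gene counted as a member if the RefSeq symbol of its array probes began with *slc* and a digit. By name, 11 genes were left out (*slc2a1a*, *slc2a1b*, *slc4a1a*, *slc40a1*, *slc15a1b*, *slc12a10.2*, *slc9a3.2*, *slc24a5*, *slc45a2*, *slc1a2b* and *slc1a3a*). Of the 12858 genes named on the arrays, 266 were members. A ratio between the arrays could be formed for 249 of them, from 449 probes, against 11976 of all named genes. The rule is written on gene names and sets no threshold on a measured value. The symbols *slc7a6os* and *slc34a2aas* match by their letters although neither gene encodes a carrier, so both were kept apart from the substrate classes.

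The data are 2 single-colour Agilent arrays of total RNA from whole animals at 3 dpf, 1 from embryos given 8 ng of *miR-132* MO and 1 from embryos given 8 ng of Ctrl MO. A morpholino (MO) is an antisense oligonucleotide that binds and blocks its target RNA, here the mature microRNA *miR-132*, and it was injected at the 1-cell stage. Animals of both groups were kept in Hanks' solution, to which the methods of the study added the pigment blocker PTU, and their chorions were removed with pronase. The strain behind the arrays and the number of animals pooled are not given in the sources used here, and *miR-132* itself was not analysed here. Each group has 1 array and thus no error between replicates, so every difference describes these 2 arrays and no test is given.

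Solute carriers are membrane proteins that move ions, nutrients, transmitters and metabolites across cell and organelle membranes, as exchangers, as facilitated transporters, or coupled to the sodium or proton gradient. Families are numbered by sequence, and members of a family mostly share a kind of substrate. Many mark the apical or basal membrane of a polarised epithelium such as the gut, liver or kidney tubule. The synapse and its vesicles carry others, and most of the SLC25 family sits in the inner mitochondrial membrane. Zebrafish keep many of these genes as duplicated copies, marked a and b.

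Intensities are given as scaled intensity, the background-subtracted spot intensity divided by the 75th percentile of its array, which was 866.4 for *miR-132* MO and 730.9 for Ctrl MO. Probes of a gene were averaged on the log2 scale, and log2 ratios are *miR-132* MO over Ctrl MO. Levels of different genes are not comparable, since each probe binds with its own strength, and a sum over genes mostly follows its brightest genes. A difference of at least 1.5-fold, a log2 ratio beyond 0.585 in size, was used to count genes as higher or lower. Of the member spots, 90.3% were well above background on the *miR-132* MO array and 96.2% on the Ctrl MO array, and 0 spots were saturated. For 9 members no probe was well above background on the *miR-132* MO array. Their ratio is a bound against the lowest intensity still above background there (0.0194 in scaled units). If the gene's own reading was higher, that reading was used, and the ratio is then not a strict bound. These genes are called dim, and their ratio could not come out above 0. No member had the reverse. In whole animals, fewer cells of a type and less RNA per cell cannot be told apart.

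Solute carrier genes were more often lower than higher in *miR-132* MO larvae. Of the 249 members, 8 were at least 1.5-fold higher (3.21%), beside 4.11% of all named genes, and 35 were at least 1.5-fold lower (14.1%), beside 8.04% of all named genes. Their median log2 ratio was -0.08, beside -0.006 over all named genes. Of the members 96 lay above 0 and 153 below, beside 5872 and 6104 of all named genes. Among the 236 members bright enough to be read on both arrays by every probe, 7 were higher and 28 lower, beside 4.07% and 6.85% of such genes in the whole table. All 43 members past the threshold among the 249 kept their sign under the other scalings and background correction tried. With normexp background correction the counts were 4 higher and 22 lower, beside 1.96% and 4.67% of all named genes. Of the 8 higher and 35 lower members, only 3 and 21 stayed past the threshold with normexp. Normexp values are given below for part of the named genes, and a gene without such a value did not necessarily pass.

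Genes of low intensity were lower more often than bright ones. All named genes were ranked by mean intensity and divided into 3 equal bins. In the dimmest bin 23 of 111 members were lower (20.7%), beside 12.9% of all genes there. That bin also holds members dim on the *miR-132* MO array, whose ratio could not come out above 0. With every probe above background on both arrays, 16 of 98 members there were lower, beside 334 of 3404 named genes. In the middle bin 8 of 85 members were lower (9.41%), beside 7.11%, and in the brightest 4 of 53 (7.55%), beside 4.16%. Of the 43 members past the threshold, 24 were seen by 1 probe only. The other 19 had 2 or more probes, and in 12 of those every probe passed. By that stricter count, single-probe genes included, 6 members were higher and 30 lower, beside 2.88% and 6.77% of all named genes. Replicate spots of the same probe had a median SD of 0.103 in the log2 ratio over 26 probes, which covers spot noise alone.

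The substrate classes differed in how far their members spread. The lowest medians were those of the 19 carriers of organic ions, bile acids and urea (-0.31) and the 21 transmitter carriers (-0.30). In the first 7 were lower (36.8%) and 0 higher, in the second 3 (14.3%) and 0, beside 8.04% and 4.11% of all named genes. The order of the classes changed with the setting. All 11 carriers of vitamins and heme and all 7 of lipids and choline had ratios below 0, with medians of -0.23 and -0.22. In each class 2 were lower (18.2% and 28.6%). At the other end, 0 of 19 metal carriers passed 1.5-fold in either direction (median 0.03), and 1 of 17 nucleotide sugar carriers did (median 0.02). The median of 8 classes lay below 0 under all 9 alternatives. In the other 6 (amino acids, metals, mitochondrial carriers, mono- and dicarboxylates, nucleotide sugars, and phosphate and sulfate) it changed sign under at least 1 of them. Joined together, a grouping chosen after the values were seen, the mitochondrial, metal and nucleotide sugar carriers had 3 higher and 3 lower of 82 (3.66% each, median 0.01). The other 11 classes had 5 higher (3.05%) and 32 lower (19.5%) of 164 (median -0.19), beside 4.11% and 8.04% of all named genes. The plot of ratios by class shows these spreads gene by gene.

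**Figure D1:**
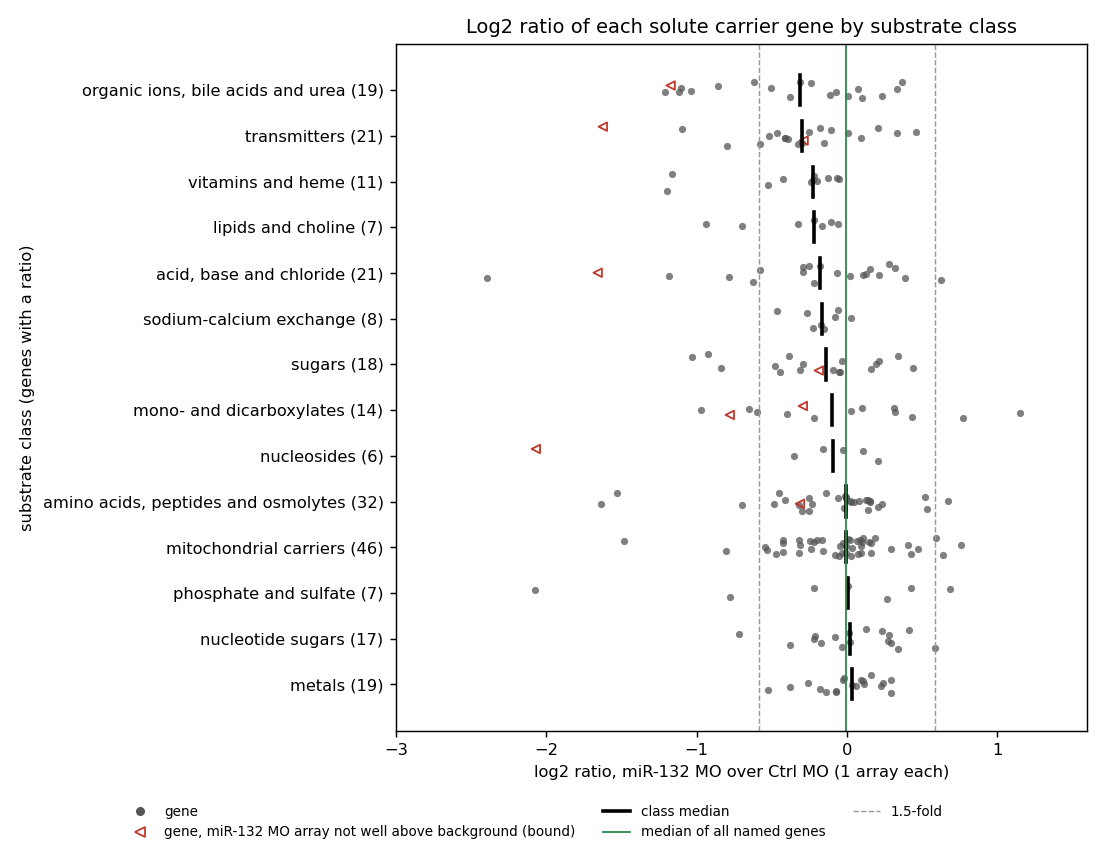
Log2 ratio, *miR-132* MO to Ctrl MO (x axis), for each solute carrier gene, 1 point per gene, by substrate class (y axis, with the number of genes); the 3 genes in no class are not drawn. Black bars are class medians, the green line is the median of all named genes (-0.006), dashed lines mark 1.5-fold, and open triangles are genes dim on the *miR-132* MO array. Low outlying points lie in both upper and lower classes, while the 19 metal carriers all stay inside the dashed lines.

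Listed carriers of the absorptive gut and the liver were mostly lower. Of the 15 genes on the list 12 were measured. In *miR-132* MO larvae 10 of them were lower by 1.5-fold or more (83.3%), beside 8.04% of all named genes, with 1 higher and a list median of -1.03. The list was chosen with earlier results known and gives no independent support. It is not complete, and holds neither *slc6a19a.1* (log2 ratio -1.64) nor *slc13a2* (1.15), the highest of any member. The summed scaled intensity of the 12 measured list genes was 7.37 on the *miR-132* MO array and 11.7 on the Ctrl MO array. Among the 237 members outside this list, 25 were lower (10.5%) and 7 higher (2.95%), near the 8.04% and 4.11% of all named genes, with a median of -0.08.

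The lowest ratio of any member was that of *slc26a3.2*, whose mammalian counterpart exchanges chloride for bicarbonate in the intestinal brush border. It read 0.0924 in *miR-132* MO larvae against 0.487 in Ctrl MO larvae, 5.27-fold lower (log2 ratio -2.40, 1 probe). The sodium-phosphate cotransporter *slc34a2a* read 0.103 in *miR-132* MO and 0.435 in Ctrl MO larvae, 4.22-fold lower (-2.08, 1 probe). Both genes rest on a single probe, which was well above background on both arrays. The alternatives that filter or choose probes, or that treat dim values differently, thus could not change their ratios. Under the other scalings and normexp, which could, both genes stayed past the threshold.

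The apical carriers of neutral amino acids were low as well. *slc6a19a.1* read 0.0817 in *miR-132* MO and 0.254 in Ctrl MO larvae, 3.11-fold lower. *slc6a19b* read 0.213 in *miR-132* MO and 0.616 in Ctrl MO larvae, 2.89-fold lower. Their mammalian counterpart SLC6A19 takes up neutral amino acids at the brush border of gut and kidney tubule. *slc6a19a.1* is not in the gut and liver list, which holds the symbol *slc6a19a*.

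Genes for bile acid uptake and export were both lower, 1 of each. *slc10a2*, the sodium-coupled uptake carrier of the mammalian ileum, read 0.0927 in *miR-132* MO and 0.202 in Ctrl MO larvae, 2.17-fold lower, and its probes gave log2 ratios of -1.35 and -0.89. *slc51a*, a subunit of the basolateral bile acid exporter, read 1.105 in *miR-132* MO and 2.27 in Ctrl MO larvae, 2.06-fold lower (-1.04, 1 probe). *slc22a7b.1*, an organic anion carrier, was seen by 4 probes with log2 ratios between -1.71 and -0.91 and read 0.0728 in *miR-132* MO and 0.169 in Ctrl MO larvae. Its relative *slc22a7a* read 2.71 on both arrays, with a log2 ratio of 0.00.

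Glucose carriers of gut and liver followed the same direction. *slc5a1*, which couples glucose uptake to sodium, read 0.116 in *miR-132* MO and 0.237 in Ctrl MO larvae, 2.04-fold lower. Its brighter probes gave -1.32 and -1.59, and a dimmer probe, not above background on the *miR-132* MO array, gave a bound of -0.17. *slc2a2*, the facilitative glucose carrier of liver and gut, read 0.159 in *miR-132* MO and 0.286 in Ctrl MO larvae, with 4 probes between -1.03 and -0.60, all past the threshold. The remaining low genes of the list were *slc27a2a*, a fatty acid carrier and acyl-CoA synthetase (2.61 in *miR-132* MO and 4.22 in Ctrl MO larvae, -0.70), and *slc13a5a*, a citrate carrier (0.0484 in *miR-132* MO and 0.0763 in Ctrl MO larvae, -0.65, but -0.58 with quantile normalization and -0.36 with normexp).

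The single gene of the list above the threshold was *slc34a2b*, at 0.0411 in *miR-132* MO and 0.0256 in Ctrl MO larvae (log2 ratio 0.68). Its probes disagreed, at -0.58 and 1.95, and with the dim reading taken as measured its mean was -0.27. Its sign thus rests on how the dim probe was treated.

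**Figure D2:**
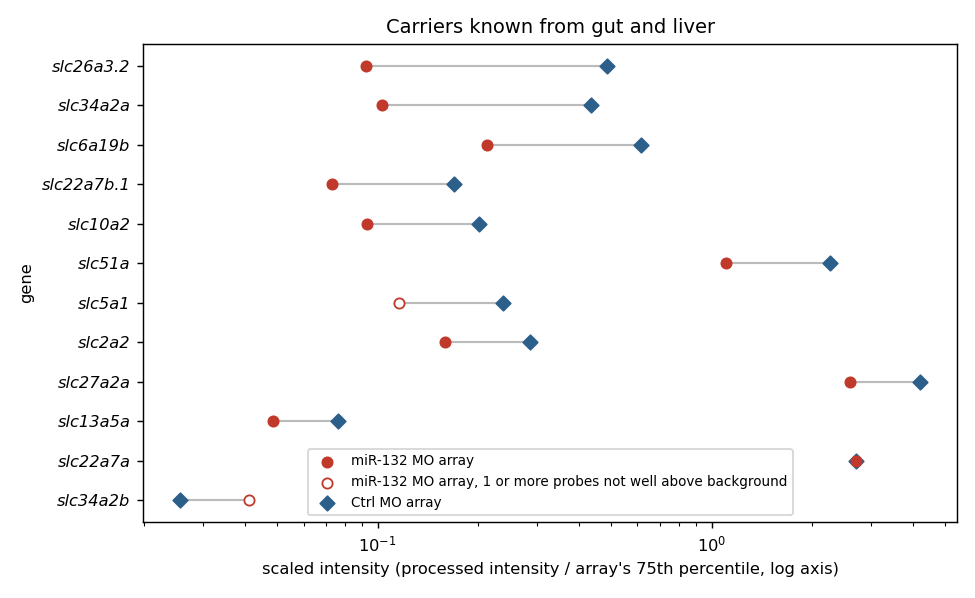
Scaled intensity (x axis, log scale) of the 12 measured carriers of the gut and liver list (y axis), 1 array per group: *miR-132* MO as circles and Ctrl MO as diamonds, with open circles where 1 or more probes were not well above background. The *miR-132* MO point lies left of the Ctrl MO point in 10 genes, at nearly the same place for *slc22a7a*, and right of it for *slc34a2b*.

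Markers of gut and liver cells were read beside these carriers. Of 5 enterocyte markers all were measured and 2 were lower, *fabp2* at 9.99 in *miR-132* MO and 25.6 in Ctrl MO larvae and *vil1* at 0.879 in *miR-132* MO and 2.50 in Ctrl MO larvae. The summed enterocyte level was 141.6 in *miR-132* MO and 153.2 in Ctrl MO larvae, most of it from *apoa1a* and *apoa4b.1*. Of 5 hepatocyte markers 4 were measured and 1 was lower, *fabp10a* at 1.35 in *miR-132* MO and 17.3 in Ctrl MO larvae. The sums were 151.1 in *miR-132* MO and 168.2 in Ctrl MO larvae, most of them from *apoa2* at 131.8 and 129.1. The other measured markers of both lists had log2 ratios between -0.36 and 0.17, and 0 of them read 0. Their part in the low ratios of the carriers was not tested.

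Kidney carriers were less uniform. Of 8 genes known from the tubule 6 were measured, with a median of -0.43. Of these 2 were lower (33.3%) and 0 higher, beside 8.04% and 4.11% of all named genes. The summed level was 1.956 in *miR-132* MO and 1.998 in Ctrl MO larvae. Most of it came from *slc20a1a* (0.9435 in *miR-132* MO and 0.7015 in Ctrl MO larvae) and *slc4a4a* (0.7422 in *miR-132* MO and 0.9073 in Ctrl MO larvae). *slc13a1*, a sulfate carrier, read 0.0460 in *miR-132* MO and 0.0790 in Ctrl MO larvae (-0.78, part of its probes dim). *slc13a3*, a dicarboxylate carrier, was dim in *miR-132* MO larvae. Its own reading there was 0.0227, against 0.0390 in Ctrl MO larvae, 1.72-fold lower. Neither gene passed with normexp, at -0.51 for *slc13a1* and -0.35 for *slc13a3*. The sulfate exchanger *slc26a1* lay just inside the threshold at -0.58, and the bicarbonate carrier *slc4a4a*, the sodium-chloride carrier *slc12a3* and the phosphate carrier *slc20a1a* had ratios of -0.29, -0.26 and 0.43. Of 6 pronephros markers 5 were measured and 1 was lower, with sums of 3.92 in *miR-132* MO and 5.03 in Ctrl MO larvae, and their part was not tested.

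By family, the sodium-coupled SLC5 carriers had more low members than any other. Of 9 measured, 6 were lower (66.7%) and 0 higher, beside 8.04% and 4.11% of all named genes, with a median of -0.93, and 4 of the 7 with every probe above background on both arrays were lower. Besides *slc5a1* these were *slc5a11*, an inositol carrier (0.112 in *miR-132* MO and 0.212 in Ctrl MO larvae, -0.93), *slc5a12*, a lactate carrier (0.153 in *miR-132* MO and 0.299 in Ctrl MO larvae, -0.97), *slc5a8l* (0.106 in *miR-132* MO and 0.160 in Ctrl MO larvae, -0.60), *slc5a6a* and *slc5a5*. *slc5a6a*, related to the mammalian carrier of biotin and pantothenate, read 0.0285 in *miR-132* MO and 0.0638 in Ctrl MO larvae (-1.16). *slc5a5*, the iodide carrier of the thyroid, was dim in *miR-132* MO larvae and read 0.0613 in Ctrl MO larvae, at least 3.16-fold lower. With normexp neither of these passed, at -0.50 for *slc5a6a* and -0.41 for *slc5a5*, and no normexp value is given for *slc5a8l*. The other 3 measured SLC5 genes had ratios of -0.43 (*slc5a6b*), -0.05 (*slc5a2*) and 0.19 (*slc5a9*).

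Both SLC47 genes, which export organic cations in exchange for protons, were lower. *slc47a1* read 0.0974 in *miR-132* MO and 0.177 in Ctrl MO larvae (-0.86), and *slc47a2.1* was dim in *miR-132* MO larvae and at least 2.26-fold lower, although with normexp its ratio was inside the threshold at -0.52. In the SLC22 family of organic ion carriers 3 of 9 were lower (33.3%), beside 8.04% of all named genes, and the family median was -0.38. *slc22a4*, whose mammalian counterpart carries ergothioneine and carnitine, read 0.0539 in *miR-132* MO and 0.116 in Ctrl MO larvae (-1.11, but -0.46 with normexp). *slc22a16* was lower too, at 0.0353 in *miR-132* MO and 0.0543 in Ctrl MO larvae (-0.62, with no normexp value given). The other 6 lay inside the threshold, among them the organic cation carriers *slc22a2* and *slc22a3* at -0.24 and 0.10. The highest ratio in the whole class was that of the urea carrier *slc14a2*, at 0.36.

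Among the other classes, low genes stood beside members close to 0. In the 6 nucleoside carriers, *slc28a1*, which couples nucleoside uptake to sodium, was dim on both of its probes in *miR-132* MO larvae and read 0.0816 in Ctrl MO larvae, at least 4.20-fold lower. The others lay between -0.35 (*slc43a3b*) and 0.20 (*slc43a3a*). Riboflavin carrier *slc52a3-1* read 0.0348 in *miR-132* MO and 0.0800 in Ctrl MO larvae (-1.20, but -0.55 with normexp), and *slc4a11*, mutated in a human corneal dystrophy, read 0.0519 in *miR-132* MO and 0.118 in Ctrl MO larvae (-1.19). All 5 SLC27 genes, which import and activate fatty acids, had ratios below 0, led by *slc27a4* at 1.54 in *miR-132* MO and 2.94 in Ctrl MO larvae (-0.94). The acetyl-CoA carrier *slc33a1* was the highest of the lipid class at -0.06.

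Of the 21 acid, base and chloride carriers 5 were lower (23.8%) and 1 higher (4.76%), beside 8.04% and 4.11% of all named genes. The class median was -0.18. Of the 20 with every probe above background on both arrays 4 were lower, beside 6.85% of such genes in the whole table. Besides *slc26a3.2*, *slc5a5* and *slc4a11*, the anion exchanger *slc26a6l1* read 0.111 in *miR-132* MO and 0.191 in Ctrl MO larvae (-0.79). *slc12a10.3* averaged -0.63 over probes at -1.22 and -0.03. The higher gene, the sodium-proton exchanger *slc9a1b*, read 0.0565 in *miR-132* MO and 0.0365 in Ctrl MO larvae (0.63), and was inside the threshold with normexp, at 0.23.

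Transmitter carriers clear glutamate, glycine, GABA and monoamines from the synaptic cleft or load them into vesicles. Of the 21 measured, 16 had ratios below 0, beside 6104 of all 11976 named genes. Only 3 were at least 1.5-fold lower (14.3%), beside 8.04% of all named genes, and 0 were higher. These counts include dim genes, whose ratio could not come out above 0. Of the 19 with every probe above background on both arrays 2 were lower, beside 6.85% of such genes in the whole table. Glycine carrier *slc6a5*, which marks glycinergic neurons, read 0.356 in *miR-132* MO and 0.620 in Ctrl MO larvae, 1.74-fold lower, with a log2 ratio between -0.82 and -0.74 under the alternatives. *slc18b1*, a vesicular polyamine carrier in mammals, read 0.0781 in *miR-132* MO and 0.167 in Ctrl MO larvae (-1.10). *slc1a2a*, a glutamate carrier whose mammalian counterpart is mainly astrocytic, was dim in *miR-132* MO larvae. Its own reading there was 0.02075, against 0.0640 in Ctrl MO larvae, 3.08-fold lower, although with normexp the log2 ratio was only -0.45.

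The other inhibitory transmitter carriers lay inside the threshold, most of them below 0. The GABA carriers *slc6a1b* and *slc6a1a* had log2 ratios of -0.52 and -0.30, at 27.1 and 1.37 in *miR-132* MO larvae against 38.7 and 1.69 in Ctrl MO larvae, and *slc6a1b* passed with normexp (-0.66). The vesicular GABA and glycine carrier *slc32a1* read 0.945 in *miR-132* MO and 1.26 in Ctrl MO larvae over 4 probes (-0.41), and *slc6a9*, the glycine carrier found on glia, had -0.11. Above 0 was *slc6a11a*, another GABA carrier, at 0.2005 in *miR-132* MO and 0.160 in Ctrl MO larvae (0.33).

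Glutamate carriers were mixed. The vesicular loaders *slc17a6a*, *slc17a7a* and *slc17a6b* had ratios of -0.47, -0.39 and 0.09. The uptake carriers other than *slc1a2a* ran from -0.58 in *slc1a6* through -0.41 in *slc1a7b*, -0.29 in *slc1a8b* (dim in *miR-132* MO), -0.18 in *slc1a1* and -0.15 in *slc1a3b* to 0.20 in *slc1a7a*. The measured genes for monoamine uptake carriers differed little between the arrays. Serotonin carrier *slc6a4a* read 0.455 in *miR-132* MO and 0.542 in Ctrl MO larvae (-0.25). Dopamine carrier *slc6a3* read 0.0543 in *miR-132* MO and 0.0541 in Ctrl MO larvae (0.00, with probes at -0.21 and 0.22). The vesicular acetylcholine carriers split, *slc18a3b* at -0.32 and *slc18a3a* at 0.46, with probes of *slc18a3a* at -0.04 and 0.96.

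**Figure D3:**
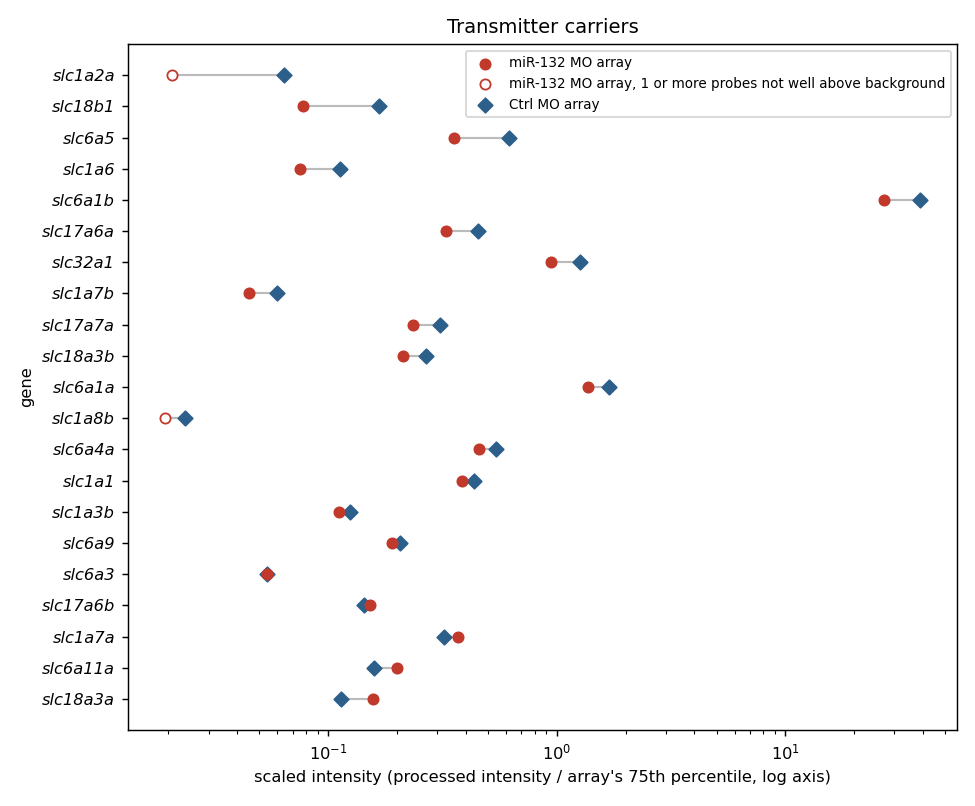
Scaled intensity (x axis, log scale) of the 21 measured transmitter carriers (y axis), 1 array per group: *miR-132* MO as circles, open where 1 or more probes were not well above background, and Ctrl MO as diamonds. The *miR-132* MO point lies left of the Ctrl MO point in 16 genes, and the widest gaps are in *slc1a2a*, *slc18b1* and *slc6a5*.

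Markers of the cells that use these carriers were read as well. Of 8 neuron markers 7 were measured, 0 passed the threshold, the median was -0.25, and the summed level was 43.4 in *miR-132* MO and 50.3 in Ctrl MO larvae. Of 5 glia markers 4 were measured, 1 was higher and 0 lower, with sums of 64.7 in *miR-132* MO and 58.2 in Ctrl MO larvae. All 7 photoreceptor markers were measured and 6 were lower, with sums of 37.1 in *miR-132* MO and 74.8 in Ctrl MO larvae. Of 9 carriers known from the retina 6 were measured, 0 passed the threshold, and the median was -0.34. Beside all of these short lists, 4.11% of all named genes were higher and 8.04% lower. No marker read 0, and their part in the ratios of the transmitter carriers was not tested.

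The mitochondrial carriers, a class that takes every SLC25 symbol, were the largest class, and most of them read alike on both arrays. Of 46, 3 were higher (6.52%) and 2 lower (4.35%), beside 4.11% and 8.04% of all named genes, and the median was -0.00. *slc25a3a*, which brings phosphate into the matrix, read 1.88 in *miR-132* MO and 5.24 in Ctrl MO larvae, 2.79-fold lower on its single probe. Its copy *slc25a3b* read 34.6 in *miR-132* MO and 33 in Ctrl MO larvae (0.07). The ADP/ATP carriers *slc25a4* and *slc25a5* had ratios of -0.06 (1 probe) and 0.19 (6 probes). A further ADP/ATP carrier, *slc25a6*, read 0.02705 in *miR-132* MO and 0.03635 in Ctrl MO larvae (-0.43, 1 probe). The other lower gene was *slc25a47a*, a carrier expressed in mammalian liver, at 0.0947 in *miR-132* MO and 0.165 in Ctrl MO larvae (-0.80).

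The 3 higher mitochondrial carriers were *slc25a38a*, *slc25a39* and *slc25a15a*. *slc25a38a*, which imports glycine for the first step of heme synthesis, read 0.119 in *miR-132* MO and 0.0701 in Ctrl MO larvae, 1.69-fold higher, with probes at 0.67 and 0.84, but 0.37 with normexp. *slc25a39*, a glutathione importer in mammals, read 0.281 in *miR-132* MO and 0.187 in Ctrl MO larvae, 1.504-fold higher (0.59) and close to the threshold. Its probes gave 0.43 and 0.75, and with normexp it did not pass. Ornithine carrier *slc25a15a* read 0.2996 in *miR-132* MO and 0.193 in Ctrl MO larvae (0.64, but 0.49 with normexp). Mitoferrin *slc25a37*, the iron importer of red cells, had 0.11, and the copy *slc25a38b* had 0.41.

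Erythroid markers were read beside them. Of 5 such markers 4 were measured, 1 was higher (*alas2*, the first enzyme of heme synthesis in red cells, at 0.821 in *miR-132* MO and 0.400 in Ctrl MO larvae) and 0 lower, and the sums were 425.1 in *miR-132* MO and 415.5 in Ctrl MO larvae. Their part in the ratios of *slc25a38a* and *slc25a39* was not tested.

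The highest ratio of any member was that of *slc13a2*, a carrier of citrate and dicarboxylates. It read 2.52 in *miR-132* MO and 1.13 in Ctrl MO larvae, 2.22-fold higher, with probes at 1.09 and 1.22 and ratios between 1.09 and 1.29 under the alternatives. It was the only higher gene of its family, where 3 of the 5 SLC13 genes were lower, beside 8.04% of all named genes. Of the 3 with every probe above background on both arrays 1 was lower, beside 6.85% of such genes in the whole table. With normexp the 3 low genes lay inside the threshold, at -0.51 (*slc13a1*), -0.35 (*slc13a3*) and -0.36 (*slc13a5a*). *slc16a9a*, of a family that carries monocarboxylates and whose mammalian counterpart moves carnitine, read 0.642 in *miR-132* MO and 0.376 in Ctrl MO larvae (0.77), and its copy *slc16a9b* had 0.43. *slc38a5b*, a glutamine and histidine carrier, read 1.27 in *miR-132* MO and 0.795 in Ctrl MO larvae (0.67).

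Carriers of amino acids outside the synapse were near 0 apart from the genes above. Of 32 in the class 3 were lower (9.38%) and 1 higher (3.12%), near the 8.04% and 4.11% of all named genes, and the median was -0.01. The remaining low gene was *slc6a22.2*, at 0.163 in *miR-132* MO and 0.265 in Ctrl MO larvae (-0.70), with its neighbour in name *slc6a22.1* at -0.49. In the SLC7 family 0 of 6 genes passed the threshold. The SLC3 heavy chains *slc3a2a* and *slc3a2b*, with which part of that family pairs, had ratios of 0.05 and 0.08.

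Metal and sodium-calcium carriers stayed inside the threshold, and 1 of the 17 nucleotide sugar carriers, *slc35d1b*, was lower (-0.72, but -0.47 on its brightest probe), with its copy *slc35d1a* the highest of that class at 0.58. Among the metals, ratios ran from -0.53 in *slc30a10*, a manganese exporter (0.743 in *miR-132* MO and 1.07 in Ctrl MO larvae), to 0.29 in *slc30a7*, which loads zinc into the secretory pathway, and 0 of 9 SLC30 and 0 of 7 SLC39 zinc and manganese carriers passed. All 8 sodium-calcium exchangers lay between -0.47 in the potassium-dependent exchanger *slc24a4a* and 0.02 in *slc8a4a*, with a median of -0.16. In the sugar class the highest ratio was 0.44, in *slc2a11b*, and in the vitamin class the highest was -0.05, in *slc49a3*. The genes kept apart from the classes had ratios of 0.58 (*slc7a6os*), -0.27 (*slc34a2aas*) and -0.42 (*slc67a1*).

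The duplicated copies were compared in 30 pairs with every probe above background on both arrays. In 7 pairs 1 copy passed 1.5-fold and in 23 neither did. Taken gene by gene, 4.07% of such genes in the whole table passed as higher and 6.85% as lower. Copies past the threshold in opposite directions were found in 0 pairs. That count depends on the filter. The copies *slc34a2a* (-2.08) and *slc34a2b* (0.68) passed in opposite directions, but the pair was left out because *slc34a2b* has a dim probe. Among the 30 pairs, the copy nearest to changing that count was *slc35d1a*, which at 0.5831 lay just inside 0.585 and passed in 4 of 9 alternatives. The signs of the copies were the same in 14 pairs and opposite in 16, and the median difference between the copies was 0.35 on the log2 scale. The widest difference was that of *slc25a3a* and *slc25a3b*, 1.55. It was followed by the UDP-sugar carriers *slc35d1b* and *slc35d1a*, which read 0.651 and 0.0739 in *miR-132* MO larvae and 1.07 and 0.0494 in Ctrl MO larvae, with ratios of -0.72 and 0.58 and a difference of 1.30. The ornithine carriers *slc25a15a* and *slc25a15b* (0.64 and -0.32) and the acetylcholine carriers *slc18a3a* and *slc18a3b* (0.46 and -0.32) came next. Probes of near-identical copies can take up each other's RNA, so ratios of tandem copies with dotted symbols, such as *slc26a3.2*, *slc6a19a.1* and *slc22a7b.1*, may not belong to 1 gene alone.

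**Figure D4:**
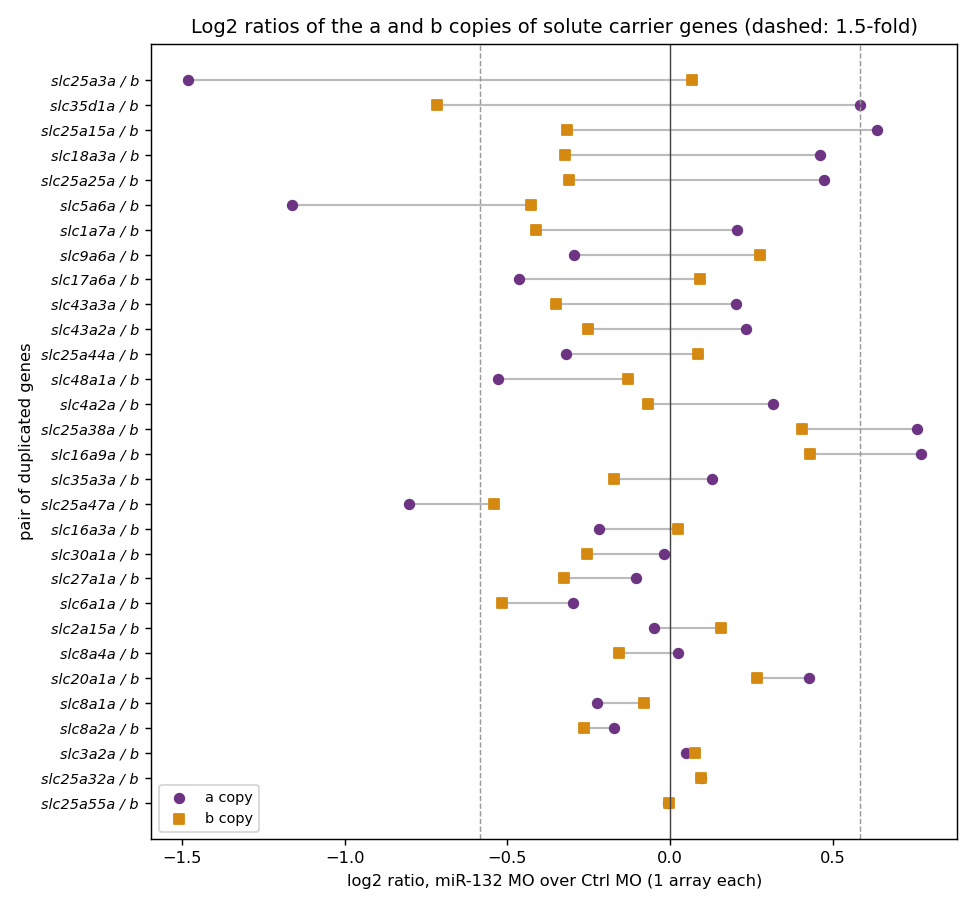
Log2 ratio, *miR-132* MO to Ctrl MO (x axis), of the a copy (circle) and b copy (square) in 30 pairs of duplicated solute carrier genes (y axis), 1 array per group, ordered by the size of the difference. Dashed lines mark 1.5-fold. In 7 pairs 1 copy lies outside the dashed lines, most clearly *slc25a3a*, and in 16 pairs the copies lie on opposite sides of 0.

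For 17 members no ratio could be formed. They include the transmitter carriers *slc17a8*, *slc6a4b* and *slc1a9*, the chloride exchangers *slc26a3.1* and *slc26a4*, and the thiamine carrier *slc19a3b*, which were flagged or dim on at least 1 array. *slc17a8*, *slc1a9* and *slc19a3b* were dim on the *miR-132* MO array alone and only faintly above background on the Ctrl MO array. For *slc17a8* and *slc19a3b* a bound would have turned the direction. *slc1a9* already read higher as measured, at 0.0203 in *miR-132* MO and 0.0194 in Ctrl MO larvae, and was left out by the same rule. *slc38a11* was left out for an outlier flag on its single probe and read 0.262 in *miR-132* MO and 0.994 in Ctrl MO larvae.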

How the data were processed

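Per the labels, total RNA was labelled with Cy3, and Agilent Feature Extraction 10.7 is named in the submitters' processing notes. The deposited spot intensity had the background subtracted by that software, with no normalization between the arrays. Rounded copies of these values, and a table of the authors' own normalized values and fold changes for chosen probes, were not used. Spots flagged as outliers were left out, and a probe had to be well above background on 1 array or more. Probes were named by RefSeq accession from NCBI's gene list for GRCz12tu, by which 25069 of 43603 probes matched 12858 genes. The array was designed on an older build, so no coordinates are given. The scanner files hold no gene name column, so accessions alone named the genes. Where 1 array was dim, its side was set to the higher of its own reading and the array's lowest intensity above background. Probes whose dim side then came out brighter were dropped, 578 of them with a gene name. This also drops dim probes that already read brighter as measured.

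Members, substrate classes, marker lists and alternatives were chosen with earlier results of these data known. The classes came from symbols, with some families split by substrate and others, such as SLC26 and SLC35, taken whole. The sulfate exchanger *slc26a1* and the iodide carrier *slc5a5* were thus counted with the acid, base and chloride carriers. The genes named were the highest and lowest ratios overall and per class with every probe past the threshold or above background, all transmitter carriers, the largest bounds, the widest pairs, and the kidney and the gut and liver lists. Other genes named were chosen after their values were seen. The alternatives were quantile normalization, loess (span 0.3), median scaling, scaling by 8 spike-in probes, normexp (offset 50), stricter and no filters on dim probes, the brightest probe, other thresholds and, added after seeing the data, dim values as read. Normexp used the median signal. Functions were tested on simulated arrays. The work was done with R 4.3.3 (limma 3.58.1) and Python 3.11.15, using the packages numpy 2.4.6, statsmodels 0.14.6 and pandas 2.3.3, with plots from matplotlib 3.10.9.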

Additional observations from a re-analysis of the deposited data

How the results depend on the processing

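No paired analysis was possible because there is only 1 array in either group. Leaving out an array was not possible either, and naming by accession alone is what the report uses, so it gave no further value. Against 8 higher and 35 lower members, normexp gave 4 and 22, a 2-fold threshold 1 and 18, and counting probes one by one 22 and 57; the other settings stayed within 1.5 times. Spike-in scaling moved the share of lower among all named genes past the threshold to 55.9%, against 66.2% with the 75th percentile, and among the members to 74.4%, against 81.4%. Quantile normalization kept 8 higher and 31 lower members and normexp 3 and 21. The largest shift of the median of all named genes was to 0.05, with spike-in scaling.

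Class medians that moved by more than the spot SD of 0.103 were mono- and dicarboxylates with both arrays above background (0.0617), nucleotide sugars with the brightest probe (-0.0893), organic ions, bile acids and urea with normexp (-0.15), genes in no class with normexp (-0.11) and with no filter (0.0721), phosphate and sulfate with no filter and with dim values as read (-0.22 each) and with the brightest probe (-0.11), and sugars with no filter (-0.29) and with the brightest probe (-0.27). The difference between copies, a minus b, became -1.40 with normexp and -1.36 with the brightest probe for *slc25a3*, 0.84 and 0.92 for *slc35d1*, 0.49 and 0.29 for *slc18a3*, and 0.78 with normexp for *slc25a15*. Of 651 values of 73 named members under the alternatives 95 moved, 47 of them with normexp, and 2 changed the sign of a member past the threshold: *slc34a2b* at -0.27 with no filter and with dim values as read. The causes were not tested. A single array per group limits every value, and dim genes most: the share of spots well above background was 80.3% for *miR-132* MO and 88.0% for Ctrl MO.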

Other observations

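Probes of the same member did not always read alike. Over the 127 members with 2 or more probes, all above background on both arrays, the median range of the log2 ratio between the probes of a gene was 0.265, and the widest was 1.22, in the glucose carrier *slc5a9* (-0.42 and 0.80). Of all members with 2 or more probes, 46 had probes on both sides of 0. The members seen by 1 probe were lower in 22 of 117 genes, beside 545 of the 5103 named genes seen by 1 probe, and those with 2 or more probes in 13 (9.85%), beside 6.08% of such genes.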
